A study of Mus musculus with 8 samples.

Results

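The potassium channel genes described here are 10 transcripts that shape repolarisation in the heart, taken by symbol from a table of 13869 genes, and all 10 were present. They are grouped by the current their proteins carry: the delayed rectifier genes Kcne1, Kcnq1 and Kcnh2, the transient outward genes Kcnd2, Kcnd3 and Kcnip2, the two-pore leak channel gene Kcnk3, and the inward rectifier genes Kcnj2, Kcnj3 and Kcnj5. Polyadenylated RNA was sequenced from the ventricles of mouse embryonic hearts at E14.5. Of the 8 libraries, 4 came from mutants labelled Mib1flox; TnT-Cre, in which Cre under the cardiac troponin T promoter deletes floxed Mib1 in cardiomyocytes, and 4 came from wild-type siblings. Each group's 4 libraries were pools made from 16 hearts in all, so a replicate is a set of embryos. The 10 genes were chosen with the mutant against wild-type values of these same libraries known. Their levels, differences and calls are therefore given as a description, with no p-value, and nothing is supported by how many of them were called.

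Cardiac potassium channels let potassium leave the myocyte and so end the action potential and set the resting potential. The transient outward current opens first and gives the early notch, the delayed rectifiers IKs and IKr open later and complete repolarisation, and the inward rectifiers hold the membrane near rest. In the adult mouse ventricle the transient outward current dominates repolarisation, whereas the delayed rectifiers are prominent in the fetal mouse heart. Mib1 is the ubiquitin ligase that acts on Notch ligands in the signal-sending cell.

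Levels are given in CPM, counts per 1000000 of the normalised library size. Differences are on the log2 scale, mutant minus wild type, from limma with its moderated standard error (SE), fitted over the 13740 genes whose mean log2 CPM was 0 or more. A gene is called where the Benjamini-Hochberg adjusted p over all those genes is under 0.05, and "rose" or "fell" is used of called genes only. In the fit 308 genes were called, which is 2.24% of those tested; 0.99% were called higher and 1.25% lower. All 10 potassium channel genes passed the filter on low values. Of the 10, 1 rose (Kcne1), 3 fell (Kcnd3, Kcnk3 and Kcnj3) and 6 were not called, and the median of their log2 differences was −0.05, beside 0 over all genes tested. The ranges of the mutant and wild-type libraries did not overlap for 5 of the 10, against 8.92% of all genes tested.

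**Figure D1:**
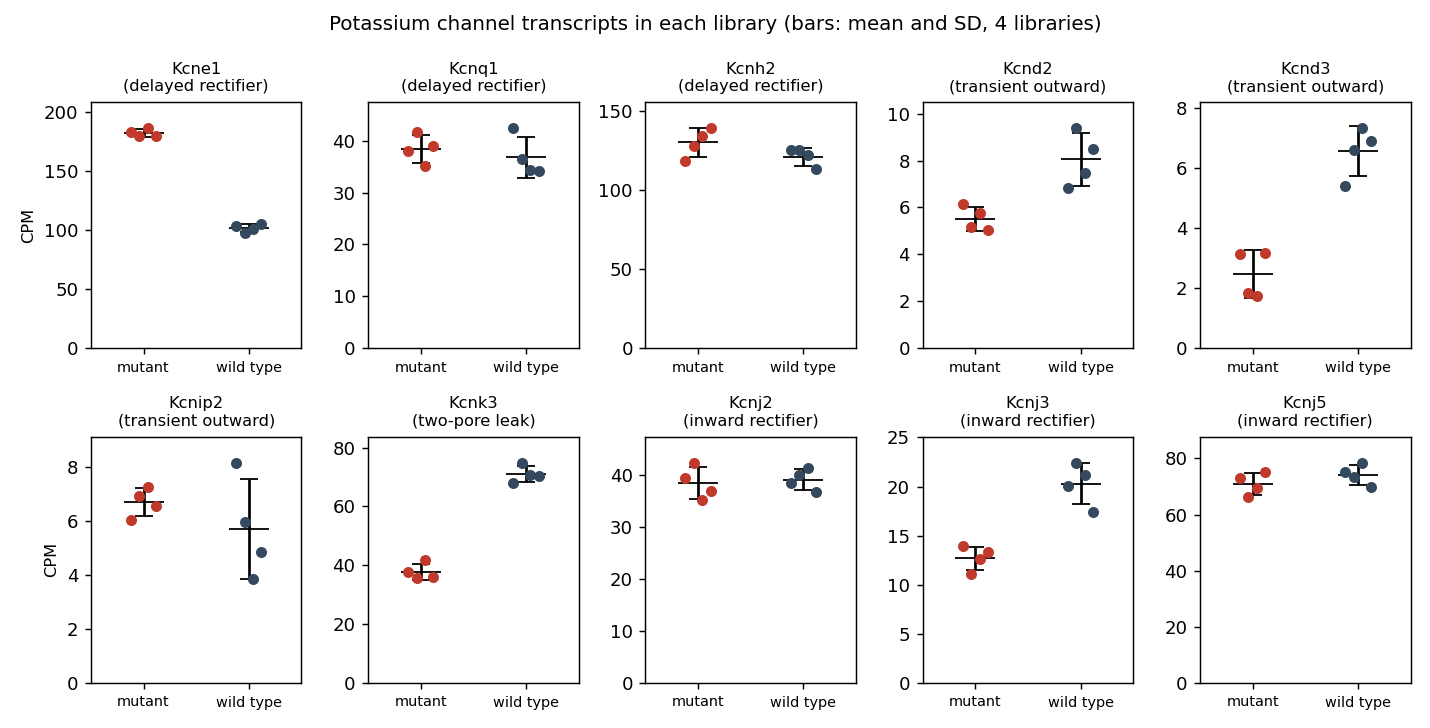
CPM of each potassium channel gene in the 4 mutant and 4 wild-type libraries; points are libraries, and bars give the mean and SD. Kcne1 lay at 179 to 186 CPM in all mutant libraries, above 97.5 to 105 CPM in wild type, while Kcnd2, Kcnd3, Kcnk3 and Kcnj3 lay below wild type in every mutant library and the other 5 genes overlapped.

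Mib1 (ENSMUSG00000024294) checked the labels. It stood at 106, 103, 95.4 and 96.4 CPM in the mutant libraries, against 150, 166, 161 and 167 CPM in the wild-type libraries, and fell by 0.68 on the log2 scale. These counts cover the whole transcript and all cells of the ventricle, including those that TnT-Cre does not reach. Recovered library totals ran from 6597943 to 11506082 counts in the mutants and from 6307634 to 8964058 in wild type, and correlations of log2 CPM were 0.9809 to 0.9872 within a group and 0.9773 to 0.9846 between groups. Counts of replicate libraries differed by a chi-square per degree of freedom of 3.22 to 9.43 between mutant libraries and 1.96 to 4.16 between wild-type libraries, with the highest values, 9.43 and 7.79, for mutant replicate 1, the deepest library, against mutant replicates 3 and 4. The calls of Kcne1, Kcnd3, Kcnk3 and Kcnj3 held without any single library. All 11 ventricular cardiomyocyte markers were present and none was called, with summed levels of 36700 to 39800 CPM in mutants and 38400 to 42400 CPM in wild type. Of these 8 were below 0 and 3 above, with a median of −0.05. The ranges did not overlap for 2 of the 11, Tnnt2 (−0.21) and Myl2 (−0.17), against 8.92% of all genes tested. Myh7 alone gave 16100 CPM of the sum in mutants and 16600 CPM in wild type. Several other lists held called markers, where 2.24% of all genes tested were called. Ranges did not overlap for 6 of 9 tested trabecular and conduction, 4 of 7 compact, 4 of 10 atrial and 4 of 10 endothelial markers. They did not overlap for 3 of 9 smooth muscle, 1 of 8 fibroblast, 2 of 8 erythroid and 0 of 5 neural markers. Of 9 tested trabecular and conduction markers, with 1 more not in the table, 6 fell (Bmp10, Nppa, Gja5, Cited1, Sema3a and Hcn4), with sums of 767 to 822 CPM in mutants and 1730 to 1810 CPM in wild type, and of 7 compact layer markers 3 rose (Tbx20, Fzd2 and Hey2), with sums of 1240 to 1360 CPM in mutants and 1150 to 1190 CPM in wild type. Of 10 atrial markers Pam fell and Myl7 rose, with 8 below 0 and sums of 2760 to 2940 CPM in mutants and 3270 to 3350 CPM in wild type; without Pam, at 1260 CPM in mutants and 1730 CPM in wild type, the other 9 summed to 1480 to 1780 CPM in mutants and 1490 to 1650 CPM in wild type. Of 10 endothelial markers 4 fell (Plvap, Ramp2, Egfl7 and Tek), with all 10 below 0 and sums of 1080 to 1120 CPM in mutants and 1250 to 1290 CPM in wild type. Smooth muscle and pericyte markers summed to 2050 to 2220 CPM in mutants and 1790 to 2030 CPM in wild type (Acta2 and Cnn1 of 9 rose, and without Acta2 the sums were 967 to 1100 CPM in mutants and 1020 to 1110 CPM in wild type), fibroblast and cushion markers to 3270 to 3620 CPM in mutants and 3460 to 3770 CPM in wild type (Fbln1 of 8 fell), erythroid markers to 1850 to 3090 CPM in mutants and 2880 to 3950 CPM in wild type (Ank1 and Hba-a1 of 8 fell), and neural markers to 16.6 to 21.2 CPM in mutants and 18.1 to 21.1 CPM in wild type (none of 5 tested was called). With a library left out, the markers called numbered 5 to 6 (trabecular and conduction), 1 to 4 (compact), 1 to 2 (atrial), 2 to 4 (endothelial), 1 to 2 (smooth muscle), 1 (fibroblast) and 1 to 3 (erythroid). Hcn4 and Tek held their call in 1, and Myl7, Egfl7 and Hba-a1 in 2, of the 8 such fits. No listed marker in the table was at 0 in all libraries of a group. The part these markers play in the channel values was not tested. In whole ventricles, fewer cells of a type and less RNA per cell cannot be told apart.

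Among the delayed rectifier genes the auxiliary subunit rose and the pore subunits were not called. Kcne1 (ENSMUSG00000039639) encodes minK, the single-pass subunit that joins the Kcnq1 channel and gives the slow current IKs its slow activation. Its level was 183, 179, 186 and 179 CPM in the mutant libraries, against 103, 97.5, 101 and 105 CPM in the wild-type libraries. Every mutant library stood above every wild-type library, and the gap between the groups was far wider than either group. The means were 182 ± 3.13 CPM in mutants and 102 ± 3.39 CPM in wild type (SD, n = 4 each), a 1.79-fold rise, or 0.84 ± 0.05 (SE) on the log2 scale. These libraries held 1240 to 2071 counts of Kcne1 in mutants and 638 to 878 in wild type, and the spread between mutant libraries (CV 1.73%) was below what counting alone gives (2.6%).

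Kcnq1 (ENSMUSG00000009545), the pore subunit of IKs, stood at 38, 41.7, 35.1 and 38.9 CPM in mutants, against 42.4, 36.5, 34.3 and 34.1 CPM in wild type. The highest library was wild-type replicate 1 and the groups overlapped, with a difference of 0.07 ± 0.08 (SE) that was not called. Several antisense genes lie across Kcnq1, among them the imprinted noncoding RNA Kcnq1ot1, and so do several genes on its own strand. The sources used here do not say whether counting used strand. The overlap was taken from whole gene spans, and shared exons were not examined. Whether reads of the overlapping genes entered the Kcnq1 counts was therefore not tested. The same holds for genes on the opposite strand across Kcnh2 (Gm15589), Kcnk3 (Gm9899) and Kcnj3 (Gm26794). Kcnh2 (ENSMUSG00000038319), the pore subunit of the rapid current IKr, stood at 118, 128, 134 and 139 CPM in mutants, against 125, 125, 122 and 113 CPM in wild type. The groups overlapped through mutant replicate 1, and the difference of 0.09 ± 0.06 (SE) was not called. Both genes were well counted, with 217 to 431 counts of Kcnq1 and 772 to 1333 counts of Kcnh2 per library.

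The balance of the IKs subunit transcripts restates the values of Kcne1 and Kcnq1 within each library and is no separate result. Taken per kilobase of the longest protein-coding transcript, the ratio of Kcne1 to Kcnq1 was 4.53 ± 0.397 in mutants and 2.66 ± 0.278 in wild type (SD, n = 4 each). It ran from 4.1 to 5.05 in mutant libraries and from 2.32 to 2.95 in wild-type libraries, with no overlap. The log2 ratio was higher by 0.77 in mutants, and between 0.71 and 0.82 whichever library was left out. The level of such a ratio rests on the transcript length used, while its log2 difference between the groups does not. With the median transcript length the means were 96.2 for Kcne1 and 131 for Kcnq1 in mutants, and 53.8 and 125 in wild type (CPM per kilobase). The other auxiliary genes of this family that were in the table were not called: Kcne3 stood at −0.21 ± 0.21 (SE), Kcne4 at 0 ± 0.19 and Kcne1l at 0.04 ± 0.16 on the log2 scale. These 3 genes were picked as relatives of Kcne1 after their values were seen.

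**Figure D2:**
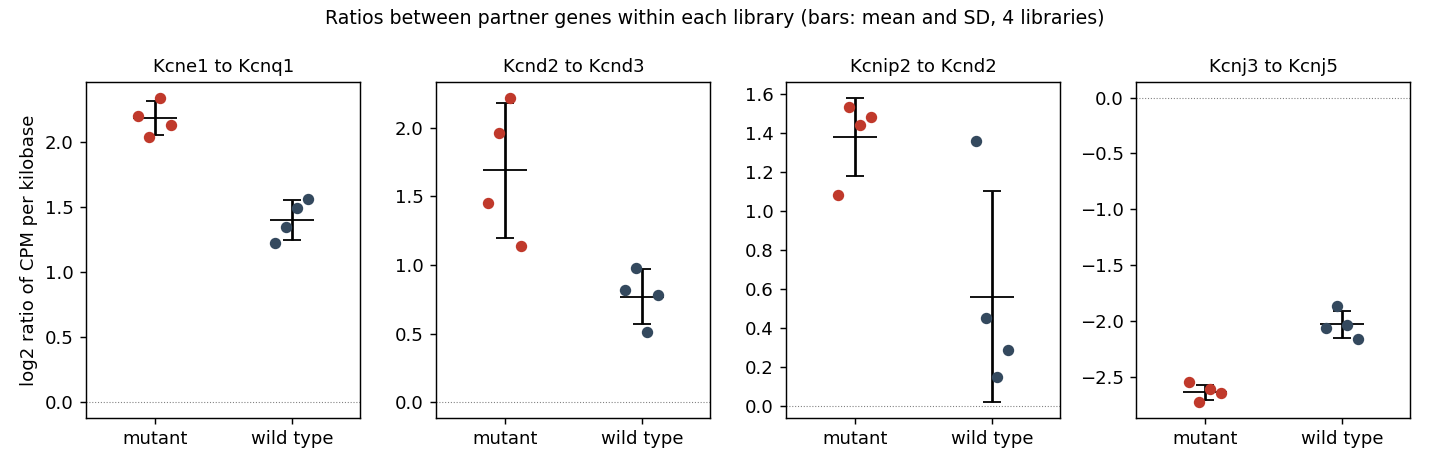
Log2 ratio of CPM per kilobase between partner genes in each of the 4 mutant and 4 wild-type libraries; points are libraries, and bars give the mean and SD. The groups are apart for Kcne1 to Kcnq1 (means 2.18 in mutants and 1.4 in wild type), Kcnd2 to Kcnd3 (1.69 and 0.77) and Kcnj3 to Kcnj5 (−2.64 and −2.03), and overlap for Kcnip2 to Kcnd2 through wild-type replicate 1.

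The transient outward pore genes were low in all libraries and lower in mutants. Kcnd3 (ENSMUSG00000040896), which encodes Kv4.3, stood at 3.13, 1.84, 1.72 and 3.18 CPM in the mutant libraries, against 5.4, 6.61, 7.32 and 6.91 CPM in the wild-type libraries. No mutant library reached the lowest wild-type library. The means were 2.47 ± 0.793 CPM in mutants and 6.56 ± 0.825 CPM in wild type (SD, n = 4 each), a 2.75-fold fall, or −1.46 ± 0.23 (SE) on the log2 scale. These values rest on 11 to 35 counts in mutant libraries and 37 to 59 counts in wild-type libraries, and the CV among mutants, 32.1%, was above the 24% that counting gives. An antisense gene, Kcnd3os, and a gene on the same strand, Gm43847, overlap the span of Kcnd3, and the strand of the counting is not given.

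Kcnd2 (ENSMUSG00000060882) encodes Kv4.2, the other pore subunit of the fast transient outward current in the mouse. It stood at 6.13, 5.15, 5.76 and 5.05 CPM in mutants, against 6.85, 9.38, 7.48 and 8.5 CPM in wild type. The groups did not overlap, but the margin was narrow, and the difference of −0.54 ± 0.14 (SE) was not called. Genes on the same strand (Gm42583, Gm42584 and 5330437M03Rik) overlap the span of Kcnd2, and whether their reads entered its counts was not tested. Kcnip2 (ENSMUSG00000025221) encodes KChIP2, the cytoplasmic calcium-binding subunit that brings Kv4 channels to the membrane. It stood at 6.04, 6.93, 7.26 and 6.54 CPM in mutants, against 8.14, 5.94, 3.86 and 4.83 CPM in wild type. Wild-type replicate 1 was the highest and wild-type replicate 3 the lowest of all 8 libraries, so the mutants lay inside the wild-type range. The difference of 0.29 ± 0.2 (SE) was not called, and it was 0.48 without wild-type replicate 1 and 0.12 without wild-type replicate 3.

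Summed per kilobase, Kcnd2 and Kcnd3 together reached 1.42 ± 0.156 in mutants and 2.48 ± 0.285 in wild type, whereas the delayed rectifier pore genes Kcnq1 and Kcnh2 together reached 43.4 ± 2.22 in mutants and 40.9 ± 2.36 in wild type (CPM per kilobase, SD, n = 4 each). The transient outward sums did not overlap between the groups, at 1.26 to 1.63 in mutants and 2.08 to 2.74 in wild type, and the delayed rectifier sums did. Since neither Kcnd2 nor Kcnd3 overlapped alone, their sum could not overlap. These sums, and the ratios that follow, restate the values of the single genes and are no separate result. The difference of Kcnd3 was larger in size than that of Kcnd2, and the ratio of Kcnd2 to Kcnd3 per kilobase was 3.37 ± 1.11 in mutants and 1.72 ± 0.228 in wild type, with no overlap. With the median transcript length the mean of Kcnd2 was below that of Kcnd3 in wild type (1.56 and 2.46 CPM per kilobase) and above it in mutants (1.07 and 0.925). The ratio of Kcnip2 to Kcnd2 was 2.63 ± 0.347 in mutants and 1.56 ± 0.672 in wild type, and here the groups overlapped.

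RefSeq's promoter table for assembly GRCm38.p6 held 7 of the 10 genes (Kcnh2, Kcnd2, Kcnd3, Kcnip2, Kcnj2, Kcnj3 and Kcnj5). The 250 bases before each start were searched on both strands for the core of RBPJ, the DNA-binding factor of the Notch pathway (TGGGAA), the E-box class bound by Hey and Hes repressors (CACGTG), a T-box site (AGGTGT) and an Iroquois site (ACANNTGT). The 3 windows with an RBPJ core are shown because they belong to genes with unlike values, Kcnd3 (which fell), Kcnd2 (lower, not called) and Kcnh2 (not called). They are written 5′ to 3′ in the direction of the gene, with the match in capitals.
Kcnd3: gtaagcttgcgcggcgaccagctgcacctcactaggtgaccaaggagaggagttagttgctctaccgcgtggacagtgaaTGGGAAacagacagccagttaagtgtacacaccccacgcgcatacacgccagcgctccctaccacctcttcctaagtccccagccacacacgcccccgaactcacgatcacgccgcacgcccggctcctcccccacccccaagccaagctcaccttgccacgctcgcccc
Kcnd2: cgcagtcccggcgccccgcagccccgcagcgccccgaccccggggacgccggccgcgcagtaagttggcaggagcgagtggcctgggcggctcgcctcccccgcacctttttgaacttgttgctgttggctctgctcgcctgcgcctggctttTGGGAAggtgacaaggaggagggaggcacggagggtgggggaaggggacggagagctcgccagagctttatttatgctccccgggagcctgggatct
Kcnh2: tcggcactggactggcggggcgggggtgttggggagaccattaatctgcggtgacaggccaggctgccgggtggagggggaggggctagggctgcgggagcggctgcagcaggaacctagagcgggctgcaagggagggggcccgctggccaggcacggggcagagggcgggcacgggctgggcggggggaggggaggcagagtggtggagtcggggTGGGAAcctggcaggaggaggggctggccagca
The Kcnd3 window is chr3:105451640-105451889 on the plus strand and overlaps an exon of the antisense gene Kcnd3os. The Kcnd2 window is chr6:21215096-21215345 on the plus strand and overlaps no annotated exon. The Kcnh2 window is chr5:24329592-24329841 on the minus strand and lies within the Kcnh2 gene, outside its exons, since longer transcripts start further upstream. The RBPJ core began 170 bases before the start in Kcnd3, 97 in Kcnd2 and 33 in Kcnh2. The bases just after the start were found in a GENCODE transcript of the gene for Kcnh2, but not for Kcnd3 or Kcnd2. The distances in Kcnd3 and Kcnd2 thus rest on the start given by RefSeq alone. It was present in 3 of the 7 windows and in 21.6% of all 32536 distinct windows of the table. The E-box was in 1 of 7 (Kcnj2; 6.04% of all windows), the T-box site in 1 of 7 (Kcnj3; 11.9%) and the Iroquois site in 0 of 7 (6.33%). No match overlapped another. The 7 windows held 58% to 73.6% G and C, above the median of 52.4% over all windows.

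The largest change among the leak and inward rectifier genes was that of Kcnk3. Kcnk3 (ENSMUSG00000049265) encodes TASK-1, a two-pore background channel that is open near rest and closes in acid. It stood at 37.8, 35.7, 41.7 and 36.1 CPM in the mutant libraries, against 68.1, 74.8, 70.8 and 70.5 CPM in the wild-type libraries. All mutant libraries were near the same level, well below every wild-type library. The means were 37.8 ± 2.74 CPM in mutants and 71 ± 2.76 CPM in wild type (SD, n = 4 each), a 1.88-fold fall, or −0.91 ± 0.07 (SE) on the log2 scale. With 278 to 428 counts in mutants and 449 to 673 in wild type, its replicate spread was close to counting error, at a CV of 7.24% in mutants (5.69% from counting) and 3.89% in wild type (4.35%).

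The pair of genes of the acetylcholine-activated current differed from each other. Kcnj3 (ENSMUSG00000026824) and Kcnj5 (ENSMUSG00000032034) encode GIRK1 and GIRK4, which assemble into the channel of the current IKACh of the atria and sinus node. Kcnj3 stood at 13.9, 11.1, 12.6 and 13.3 CPM in mutants, against 20.1, 22.4, 21.2 and 17.4 CPM in wild type, with no overlap. Its means were 12.7 ± 1.18 CPM in mutants and 20.3 ± 2.11 CPM in wild type (SD, n = 4 each), a 1.59-fold fall, or −0.67 ± 0.11 (SE) on the log2 scale. Kcnj5 stood at 73.2, 66.2, 69.4 and 75.1 CPM in mutants, against 75.3, 73.5, 78.4 and 69.8 CPM in wild type. Its groups overlapped, and the difference of −0.07 ± 0.06 (SE) was not called. The ratio of Kcnj3 to Kcnj5 per kilobase was 0.161 ± 0.00816 in mutants and 0.245 ± 0.0204 in wild type, with no overlap. This ratio restates the values of Kcnj3 and Kcnj5 and is no separate result. Among the 10 atrial markers Pam (−0.45) and Myl7 (0.37) had calls in opposite directions, with 8 markers below 0 and 2 above. Without Pam their sums overlapped between the groups, but Myl4, at 1030 CPM in mutants and 1110 CPM in wild type, made up most of those sums. They therefore say little about the atrial markers of low level. Of these, Mybphl (−0.93), Stard10 (−0.53), Nr2f1 (−0.44), Nr2f2 (−0.31) and Sln (−0.18) were below 0 and not called. Besides Myl7, Dkk3 (0.16, not called) lay above 0. The ranges of mutants and wild type did not overlap for 4 of the 10 atrial markers, against 8.92% of all genes tested. The part atrial tissue plays in the Kcnj3 values was not tested.

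Kcnj2 (ENSMUSG00000041695), which encodes Kir2.1, the main channel of the resting current IK1 in the ventricle, stood at 39.4, 42.3, 35.1 and 36.9 CPM in mutants, against 38.4, 40, 41.3 and 36.7 CPM in wild type. The groups lay on top of each other, and the difference of −0.03 ± 0.07 (SE) was not called. Its paralogue Kcnj12, which encodes Kir2.2, is described with the other channel genes.

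Within each group the genes kept nearly 1 order of levels per kilobase of the longest protein-coding transcript. In mutants the means were 57.2 ± 0.987 for Kcne1, 30.7 ± 2.19 for Kcnh2, 15.1 ± 0.844 for Kcnj5, 12.7 ± 0.895 for Kcnq1, 9.92 ± 0.718 for Kcnk3, 7.06 ± 0.574 for Kcnj2, 2.79 ± 0.219 for Kcnip2, 2.44 ± 0.227 for Kcnj3, 1.07 ± 0.0995 for Kcnd2 and 0.344 ± 0.111 for Kcnd3 (CPM per kilobase, SD, n = 4). In wild type they were 32 ± 1.07 for Kcne1, 28.7 ± 1.33 for Kcnh2, 18.6 ± 0.725 for Kcnk3, 15.8 ± 0.766 for Kcnj5, 12.2 ± 1.29 for Kcnq1, 7.19 ± 0.366 for Kcnj2, 3.89 ± 0.405 for Kcnj3, 2.38 ± 0.769 for Kcnip2, 1.56 ± 0.217 for Kcnd2 and 0.915 ± 0.115 for Kcnd3. With this length Kcnk3 was 5th in mutants and 3rd in wild type, and the transient outward pore genes were the lowest in both groups. Neighbours in this order overlapped only for Kcnip2 and Kcnj3 in mutants, and for Kcnj3 and Kcnip2 and for Kcnip2 and Kcnd2 in wild type. The order rests on the transcript length used. With the merged exon length the wild-type order was the same, while in mutants 4 genes changed place, Kcnk3 passing Kcnq1 and Kcnj3 passing Kcnip2. With the median transcript length 6 genes changed place in mutants and 9 in wild type, and Kcnq1, whose median annotated transcript has 294 bases, came first in both groups. Kcnd2 and Kcnd3 held the last places under each of these lengths.

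**Figure D3:**
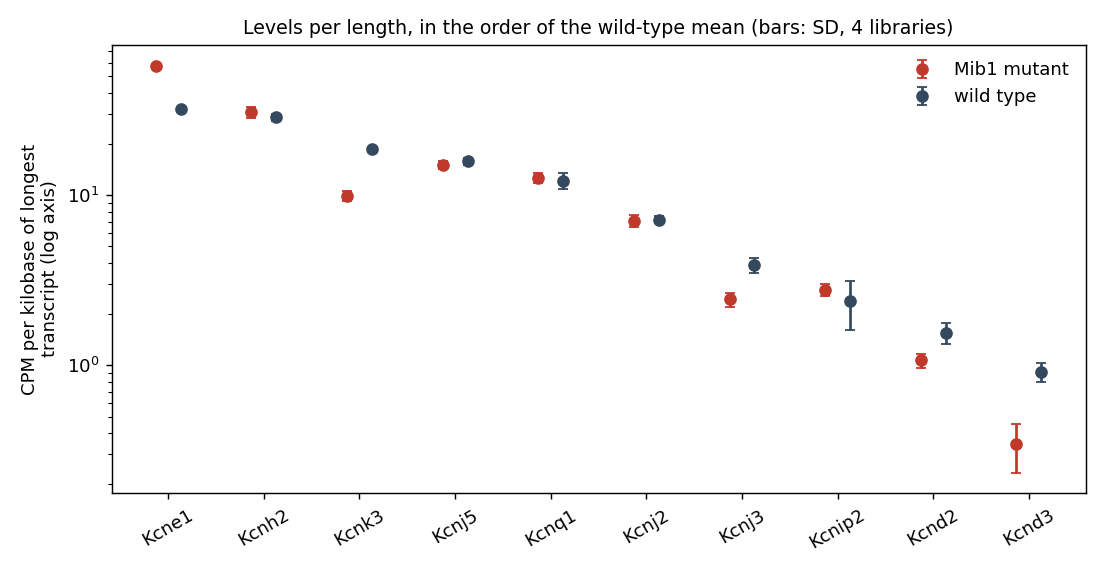
Mean CPM per kilobase of the longest protein-coding transcript, on a log axis, for the 10 genes in the order of their wild-type mean; bars give the SD over 4 libraries, mutants left and wild type right. Kcne1 and Kcnh2 are highest in both groups, at 57.2 and 30.7 in mutants and 32 and 28.7 in wild type, and Kcnd3 is lowest, at 0.344 in mutants and 0.915 in wild type.

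Most other potassium channel genes were not called. The lists used here, and that of the regulators below, were also chosen with earlier results of these data known. Their calls and adjusted p-values, among them those of Abcc9 and Fhl2, are therefore a description. A list of 88 further channel and subunit gene symbols had 34 in the table and 33 tested. Of those tested none rose, 1 fell and 32 were not called, with a median log2 difference of −0.03. The share called is near the 2.24% over all genes tested. None was called among 11 voltage-gated pore genes (median 0.01), 9 auxiliary genes (0), 2 two-pore genes (−0.12) and 4 calcium- or sodium-activated genes (0.21). The smallest p in these groups belonged to Kcnh1 (−0.69 ± 0.28 SE; limma adjusted p = 0.266), Kcnab1 (0.66 ± 0.29; adjusted p = 0.297), Kcnk6 (−0.12 ± 0.1; adjusted p = 0.643) and Kcnn1 (0.3 ± 0.16; adjusted p = 0.407). Further pore genes of early and ultrarapid outward currents, Kcna4 (Kv1.4) and Kcna5 (Kv1.5), were chosen after their values were seen and stood at 0.1 ± 0.1 and 0.12 ± 0.15 (SE), not called.

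The inward rectifier list had 7 further genes in the table, the sulfonylurea receptor genes Abcc8 and Abcc9 and a set of Kcnj genes, none of which was called. Abcc9, which encodes SUR2, the sulfonylurea receptor of the cardiac and vascular KATP channels, was the only gene of the list that fell. It stood at 210, 194, 164 and 207 CPM in mutants, against 251, 242, 239 and 245 CPM in wild type, with no overlap, a difference of −0.34 ± 0.07 (SE; limma adjusted p = 0.0192). The call was lost without mutant replicate 2 and without any single wild-type library (log2 −0.35 to −0.33 in these fits), and the adjusted p ran from 0.0054 to 0.121 over all alternatives. Chosen after their values were seen, the pore gene Kcnj8 (Kir6.1) of the vascular KATP channel stood at −0.33 ± 0.1 (SE; adjusted p = 0.132), and Kcnj12 (Kir2.2) at 4.45, 6.04, 5.76 and 7.16 CPM in mutants, against 9.3, 11.6, 7.95 and 8.5 CPM in wild type. The groups of Kcnj12 did not overlap, and its difference of −0.68 ± 0.17 (SE) just missed the threshold (adjusted p = 0.0548, and 0.0331 to 0.177 over the alternatives). The list median of these 7 genes was −0.33, beside 0 over all genes tested.

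Of 16 channel regulators tested, 1 rose and none fell, with a median of 0.01, where 2.24% of all genes tested were called. As for the channel lists, the call is a description. Fhl2, a LIM-domain protein of the heart reported to bind the minK subunit, stood at 299, 312, 306 and 314 CPM in mutants, against 225, 212, 219 and 215 CPM in wild type. The means were 308 ± 6.61 CPM in mutants and 218 ± 5.56 CPM in wild type (SD, n = 4 each), a rise of 0.5 ± 0.04 (SE) on the log2 scale with a limma adjusted p of 2.04e-05, called in all 20 alternative fits. Akap9, which encodes the IKs scaffold yotiao, stood at 0.19 ± 0.05 (SE; adjusted p = 0.08, not called). The Iroquois factor genes, of which Irx5 is known to repress Kcnd2 in the mouse ventricle, stood at 0.16 ± 0.12 (Irx3), 0.19 ± 0.07 (Irx4) and −0.1 ± 0.09 (Irx5), and none was called. Akap9 was called with array weights and Irx4 without mutant replicate 1 (adjusted p = 0.018, and 0.018 to 0.382 over the alternatives). Akap9 and the Iroquois genes were named after their values were seen.

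**Figure D4:**
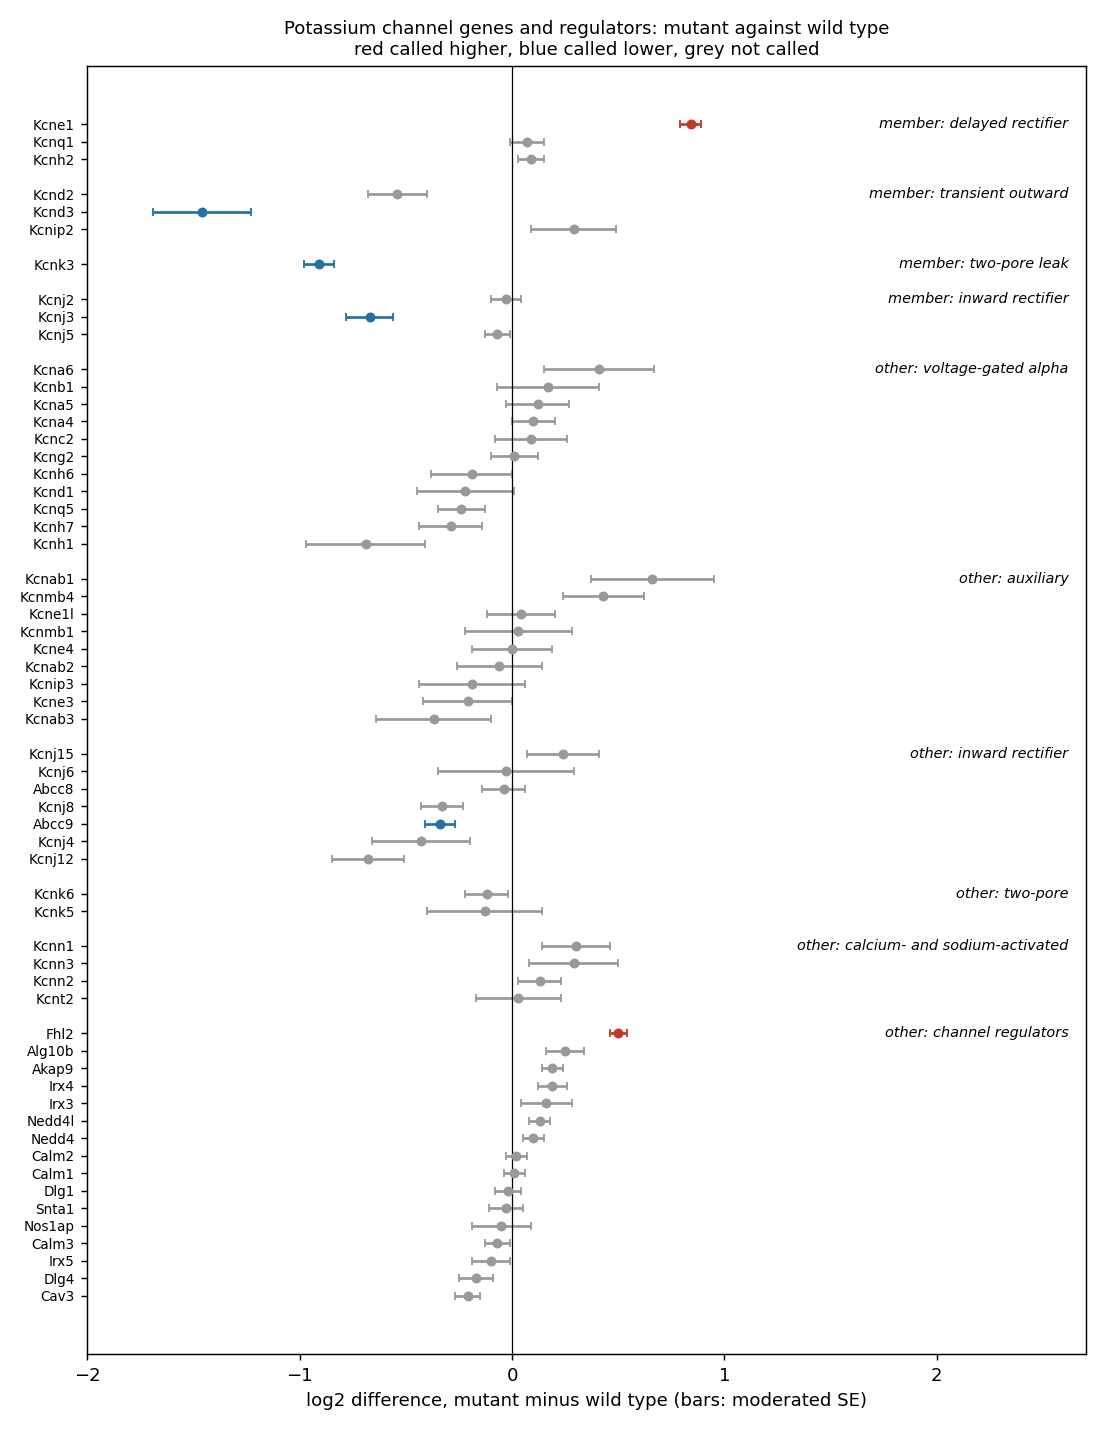
Log2 difference, mutant minus wild type, with moderated SE, for the 10 genes (top 4 groups) and for the other channel genes and regulators tested; red was called higher, blue lower and grey not called. Kcne1 (0.84) and Fhl2 (0.5) lie right of 0 and Kcnd3 (−1.46), Kcnk3 (−0.91), Kcnj3 (−0.67) and Abcc9 (−0.34) left of it, while most other genes lie near 0.

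Genes with the pattern most like that of Kcne1 and of Kcnd3 were sought by Pearson's r of log2 CPM over the 8 libraries, among tested genes with a mean of at least 5 CPM. All points share library scaling and the libraries fall into the groups compared, so r follows the group difference first. For Kcne1 the highest were Plekhh1 (0.996), Fhl2 (0.991), Itga9 (0.988), Robo1 (0.987) and Ctnnb1 (0.986). Of these Plekhh1 (0.91), Itga9 (0.58) and Robo1 (0.56) rose beside Fhl2, and Ctnnb1, at 1060 ± 9.24 CPM in mutants and 987 ± 8.89 CPM in wild type, differed by 0.1 and was not called. For Kcnd3 they were Lbp (0.982), Hmgb2 (0.981), Ednrb (0.978), Bmp5 (0.973) and Plekha7 (0.962). Lbp (−0.9), Ednrb (−0.66), Bmp5 (−0.79) and Plekha7 (−0.31) fell, and Hmgb2 (−0.11) was not called.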

How the data were processed

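RNA of 8 libraries was sequenced from 1 end, per the labels. Per the submitters' processing notes, cutadapt 1.2.1, RSEM 1.16, Bowtie2 0.12.7 (version as named), limma and edgeR were used with build mm9. The deposited values are scores: log2 CPM with a prior of 0.5 counts, each column multiplied by its own constant (15.9683 to 16.0735) so that it sums to 1000000. Dividing by the constant, taken from the 2 lowest distinct values, gave log2 CPM, and the counts came back whole for 100% of values (tolerance 0.001). The normalization of the authors was kept (factors 0.9857 to 1.0129). A floor of 3 counts was 0.265 to 0.472 CPM, for counting error only. Symbols came from a gene name table that matched 13428 of 13869 identifiers, and transcript lengths from GENCODE M21 (GRCm38).

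Groups were compared with limma 3.58.1 (R 4.3.3; eBayes with trend, group as the only term), which was tested on simulated data. The simulation gave both groups the same spread and changed only genes above 5 CPM in wild type. It therefore does not test unequal spread between the groups or changes in genes of lower level. The labels do not tie pools to litters, and p-values measure only the spread between these pools. The genes and lists were chosen with earlier results of these data known. Named were the 10 genes, Mib1, called genes of the lists, the gene of smallest p of a channel list with no call, and the 5 genes most like Kcne1 and Kcnd3; other channel and regulator genes were named after their values were seen. Alternatives were 20 other fits (pseudocount, low-value filter, scaling, variance model, weights, replicate block, each library left out), other thresholds and other transcript lengths. Marker sums without Pam or Acta2 were added after seeing the data.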

Additional observations from a re-analysis of the deposited data

How the results depend on the processing

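Kcne1, Kcnk3 and Kcnj3 kept their direction and call in all 20 alternative fits, and Kcnd3 in the 19 that tested it; with a minimum mean of 5 CPM it was left out and 3 of the 10 genes were called. With a library left out their log2 differences ran from 0.82 to 0.85 (Kcne1), −0.96 to −0.89 (Kcnk3), −0.74 to −0.61 (Kcnj3) and −1.6 to −1.31 (Kcnd3). Kcnd2 was called with array weights only (−0.58) among the fits, and at an adjusted p under 0.1. Kcnj12 was called with a pseudocount of 1 CPM, robust eBayes, voom or array weights, or without mutant replicate 4, Akap9 with array weights, Irx4 without mutant replicate 1 and Alg10b without mutant replicate 3. Over all genes, 308 were called (136 higher, 172 lower). eBayes with no trend called 179 (70 higher, 109 lower; 1 gene of the channel and regulator lists, Fhl2, against 2), array weights 490 (226 higher, 264 lower; 4 list genes), a threshold of 0.01 called 119 (54 higher, 65 lower; 1 list gene) and 0.1 called 551 (252 higher, 299 lower; 5 list genes). With a library left out, 146 to 477 were called (64 to 208 higher, 81 to 269 lower; 1 to 3 list genes); it was 146, 147 and 161 without wild-type replicates 1, 2 and 3, 183 without mutant replicate 2 and 477 without mutant replicate 3. Replicate numbers were not taken as pairs: same-numbered libraries correlated at −0.038 to 0.1 after removal of group means, and 1 of the 8 libraries correlated best with its own number. The fit with the replicate block called 240 genes, and it changed no call of the 10 genes or of the lists. Abcc9 lost its call with no trend and in 5 of the 8 fits without a library. The median difference of all genes was 9e-04 on the log2 scale with the deposited normalization and at most 0.0129 under the other scalings. The order of levels per length changed for 6 genes in mutants and 9 in wild type with the median transcript length, and for 4 in mutants with the merged exon length; the mutant orders were computed after seeing the data. The cause of the other changes was not tested. Of the 10 genes, depth limits the transient outward ones most: Kcnd3 had 11 to 35 counts in mutant libraries.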
